A study of Mus musculus with 24 samples.

Results

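The 10 genes described here encode the proteins that attach lipids to RAS, remove them and carry the lipidated protein between membranes. They were chosen by their gene symbols, for their known role in this pathway, by a rule that uses no level but with earlier results of these data known: Fnta, Fntb, Rce1, Icmt, Zdhhc9, Golga7, Lypla1, Lypla2, Abhd17a and Pde6d, or 10 of the 24421 genes in the count table. All 10 had enough reads to be tested, as did 17214 genes in all. RNA was sequenced from 24 whole melanomas of the TN mouse model (C57BL/6 background), 6 for each of 4 Nras genotypes. TN mice carry CreERT2 under the melanocyte promoter of tyrosinase and a conditional Nras allele at its own locus, and all 4 groups received 20 mM 4-hydroxytamoxifen on postnatal days 1 and 2. The genotypes differed in the residue encoded at codon 61, where both alleles gave arginine (TN61R/R), lysine (TN61K/K), leucine (TN61L/L) or histidine (TN61H/H). The age of the mice, their sex and their exposure to ultraviolet light are not in the labels. The paper describes ultraviolet B irradiation after the tamoxifen for its cohorts, and also a mock-treated arm. The K, L and H alleles were made by editing the R allele in zygotes. Titles of TN61R/R tumors carry the codes 61K, 61L and 61P, and none carries 61H, so in TN61H/H against TN61R/R a difference by genotype cannot be told apart from one by title code.

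RAS proteins are made in the cytosol and reach the plasma membrane only after their C terminus is modified. Farnesyltransferase first joins a farnesyl group to the cysteine of the C-terminal CAAX sequence, the RCE1 protease then removes the last residues, and ICMT methylates the newly exposed cysteine. NRAS is then palmitoylated at another cysteine in the Golgi, and a cycle of palmitoylation and depalmitoylation moves it between Golgi and plasma membrane. PDE6D binds the farnesyl group and carries the protein through the cytosol. NRAS is the driver oncogene of these melanomas, which is why its own modifying enzymes were examined.

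The chemistry of the pathway can be seen in the coding sequences of the substrate and of its enzymes. They are shown 5′ to 3′ on the coding strand, from GENCODE M21 transcripts on build mm10, and codons are counted from 1 at the start codon. The end of Nras covers codons 180 to 190 in exon 5 (chr3:103063417-103063449, + strand), and the capitals mark cysteine codons 181 and 186, the palmitoylated and the farnesylated residue. The Zdhhc9 stretch covers codons 163 to 172 across exons 4 and 5 (chrX:48183130-48191221, - strand), and the capitals mark codons 166 to 169, the Asp-His-His-Cys core for which this enzyme family is named. The stretches of Lypla1 (codons 115 to 123, chr1:4837057-4839395, + strand, exons 6 and 7) and Lypla2 (codons 118 to 126, chr4:135969521-135969618, - strand, exons 7 and 8) are shown because both hold the Gly-X-Ser-X-Gly sequence of serine hydrolases, whose Gly, Ser and Gly codons are in capitals.
Nras: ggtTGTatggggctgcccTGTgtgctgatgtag
Zdhhc9: gagcgcttcGACCATCACTGCccctgggtg
Lypla1: ttgggaGGAtttTCTcagGGAggcgcc
Lypla2: ctgggtGGCttcTCGcagGGTggggcc
Over their whole coding sequences, 439 of 687 aligned positions were identical between Lypla1 and Lypla2 (63.9%).

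All 10 genes were transcribed in every tumor, with at least 342 reads per library (the lowest Rce1 count). Levels of different genes are compared per length, as RPKM, the read count divided by the gene's length in kilobases and by the library's size in M reads. On that scale the highest of the 10 was Lypla2, a depalmitoylating thioesterase, at 41.0 ± 11.9 RPKM (SD, n = 24). Golga7, the Golgi subunit that pairs with ZDHHC9, followed at 28.5 ± 5.25 RPKM and Fnta, the farnesyltransferase alpha subunit, at 26.1 ± 5.48 RPKM. Golga7, Fnta, Abhd17a (23.4 ± 3.86 RPKM), Lypla1 (22.3 ± 6.93 RPKM) and Pde6d (19.8 ± 2.88 RPKM) each lay within 1 SD of its neighbor in that order. Icmt stood lower at 13.6 ± 1.39 RPKM and Zdhhc9, the catalytic palmitoyltransferase, at 11.4 ± 2.10 RPKM. The CAAX protease Rce1 and the farnesyltransferase beta subunit Fntb were lowest, at 8.36 ± 1.03 and 7.98 ± 1.93 RPKM, and did not differ beyond their spread. The substrate Nras stood at 33.6 ± 10.95 RPKM.

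**Figure D1:**
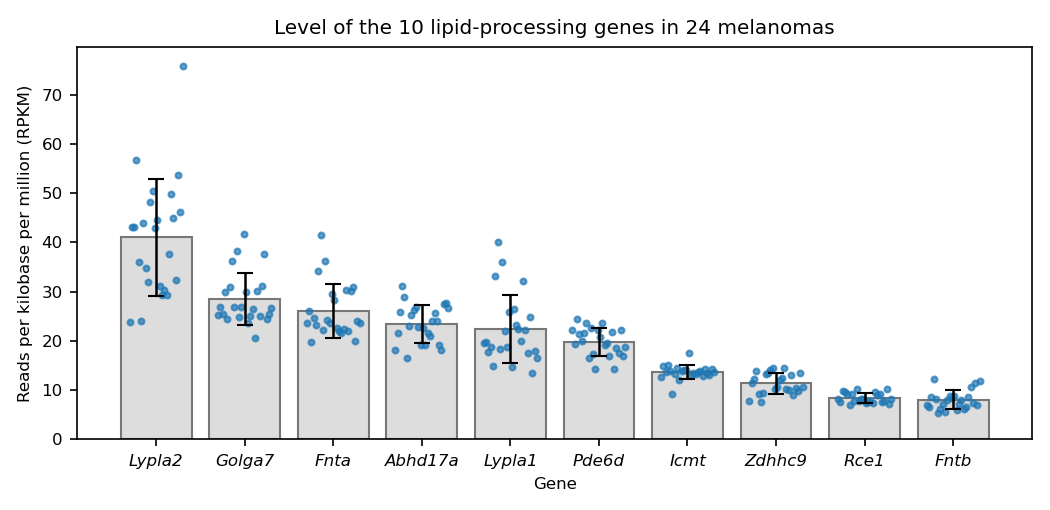
Level of each gene per length (vertical axis, RPKM) in 24 melanomas. Bars are means, error bars SD and points single tumors. Lypla2 is highest at 41.0 RPKM and Fntb lowest at 7.98 RPKM.

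The subunits of each complex differed in their amount of RNA per length. Fnta and Fntb encode the subunits of a single heterodimer, and Fnta stood 3.27 times higher than Fntb by mean RPKM. Golga7 stood 2.51 times higher than its partner Zdhhc9 by mean RPKM. In the 6 libraries whose column names lack a separator, the means of Fnta and Golga7 were higher and those of Fntb and Zdhhc9 lower. The size of both ratios thus depends on which libraries are averaged.

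The genes also differed in how much they varied from tumor to tumor. Icmt, the only carboxyl methyltransferase of CAAX proteins, had a coefficient of variation of 10.2% across the 24 tumors, lower than in all but 1.84% of the genes tested. Its values lay between 46.7 and 88.0 CPM, the read count per M reads of the library after TMM scaling of library sizes. Rce1, the step before it, varied by 12.3% (9.95 to 14.9 CPM) and Pde6d by 14.5% (15.5 to 26.7 CPM). The largest coefficients over the 24 tumors belonged to the thioesterases Lypla1, at 31.0% (32.7 to 97.5 CPM), and Lypla2, at 28.9% (37.8 to 121 CPM). Lypla1 stood at 77.9 ± 14.2 CPM (SD) in 6 libraries whose column names lack a separator and at 46.5 ± 7.99 CPM in the other 18. In those 18, Lypla2 stood at 68.3 ± 20.1 CPM and varied more for its mean than Lypla1. Lower-count genes carry more counting noise, and the genes tested include many of these.

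The study asked how the codon 61 mutants differ, and the first comparison here asked whether the RNA for NRAS modification differed with the genotype. No member did so after adjustment. In TN61K/K against TN61R/R, 0 of 10 members passed an edgeR adjusted p under 0.05, as did 0 of 17214 genes (0% of all genes tested). In TN61L/L against TN61R/R it was again 0 of 10, and 0% of all genes. In TN61H/H against TN61R/R, 0 of 10 members passed while 348 genes did (2.02%), and in the test for any difference among the 4 genotypes 0 of 10 members passed while 469 genes did (2.72%). At an unadjusted p under 0.05 the members counted were 1, 2 and 0 in the 3 comparisons with TN61R/R and 0 in the 4-genotype test, where all genes reached 5.15%, 5.55%, 15.8% and 17.4%. DESeq2 and limma-voom also called 0 members in each of these 4 tests. Over all genes, in the same order, DESeq2 called 3, 34, 909 and 1496 genes (0.0174%, 0.198%, 5.28% and 8.69%) and limma-voom 0, 0, 189 and 248 genes (0%, 0%, 1.1% and 1.44%). By edgeR, 887 and 956 genes had an unadjusted p under 0.05 for TN61K/K and TN61L/L. With the title code as a block, which sets TN61K/K and TN61L/L each against the 2 TN61R/R tumors of their own code, 0 members and 0 genes were called, and 0 members had an unadjusted p under 0.05.

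**Figure D2:**
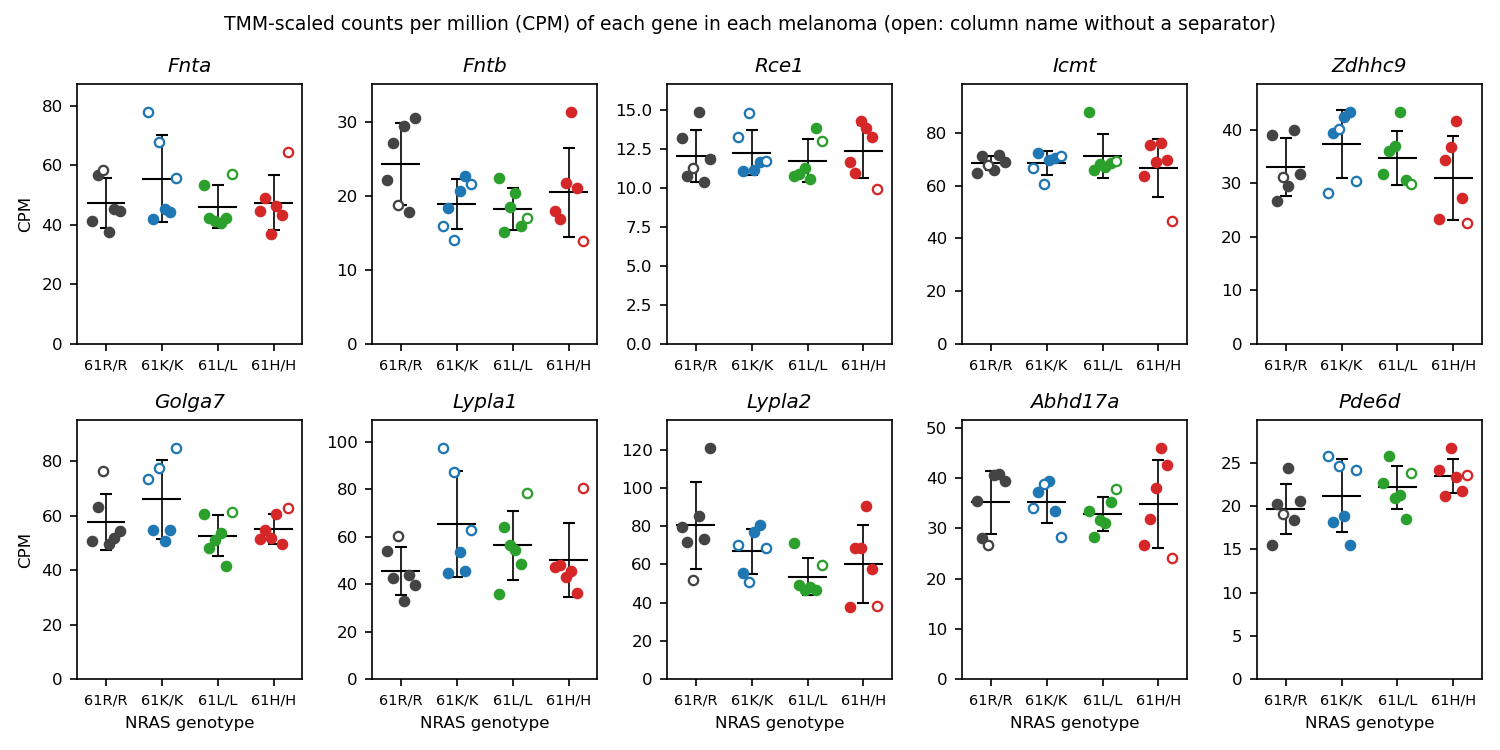
TMM-scaled CPM (vertical axis) of the 10 genes in each melanoma by NRAS genotype. Lines are means, error bars SD (n = 6), open points the 6 libraries whose column name has no separator. For every gene the ranges of the 4 genotypes overlap, and open points sit high for Fnta, Golga7 and Lypla1.

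Neither farnesyltransferase subunit passed the test. Fntb, whose product holds the zinc-dependent active site, had a lowest, median and highest value of 17.7, 24.6 and 30.4 CPM in TN61R/R. In TN61L/L it had 15.1, 17.7 and 22.4 CPM, so that 3 of 6 TN61L/L tumors lay under all TN61R/R tumors and the groups overlapped. The log2 fold change of Fntb was -0.41 ± 0.18 (SE) in TN61L/L (95% interval -0.79 to -0.04, unadjusted p = 0.0319, edgeR adjusted p = 0.847). It was -0.36 ± 0.18 in TN61K/K (-0.74 to 0.0096) and -0.25 ± 0.18 in TN61H/H (-0.62 to 0.13). Fnta gave 0.23 ± 0.16 in TN61K/K (-0.10 to 0.57), which turned to -0.053 within the 18 libraries whose column names have a separator, -0.04 ± 0.16 in TN61L/L (-0.37 to 0.30) and 0.0075 ± 0.16 in TN61H/H (-0.33 to 0.34).

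The CAAX enzymes had the narrowest intervals of all. Rce1, a membrane protease of the endoplasmic reticulum, had a mean in TN61R/R of 12.04 ± 1.69 CPM (SD, n = 6), beside TN61K/K at 12.3 ± 1.47, TN61L/L at 11.7 ± 1.38 and TN61H/H at 12.3 ± 1.72 CPM. Its 95% intervals against TN61R/R reached from -0.22 to 0.28, from -0.29 to 0.21 and from -0.22 to 0.28 on the log2 scale. For Icmt the TN61R/R mean was 68.5 ± 2.71 CPM, that of TN61K/K 68.7 ± 4.40, of TN61L/L 71.3 ± 8.27 and of TN61H/H 66.8 ± 10.9 CPM, with intervals of -0.20 to 0.21, -0.15 to 0.26 and -0.24 to 0.17. Icmt shares 104 exon bases with Rnf207 on the opposite strand, and whether counting used strand is not stated, so these reads cannot be told apart.

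The palmitoyltransferase pair also overlapped between all genotypes. Zdhhc9 had a lowest, median and highest value of 26.6, 31.5 and 40.0 CPM in TN61R/R and 28.2, 39.8 and 43.3 CPM in TN61K/K, where 3 of 6 tumors lay above all TN61R/R tumors. Its log2 fold changes were 0.17 ± 0.16, 0.07 ± 0.16 and -0.09 ± 0.16 in TN61K/K, TN61L/L and TN61H/H. Golga7 gave 0.20 ± 0.14, -0.13 ± 0.14 and -0.06 ± 0.14 in the same order, and its TN61K/K value turned to -0.031 within the 18 libraries with a separator. The edgeR adjusted p of the 4-genotype test was 0.677 for Zdhhc9 and 0.429 for Golga7.

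Among the enzymes that remove palmitate, Lypla2 came nearest to a difference and its relative Lypla1 had the widest intervals. The lowest, median and highest Lypla2 values were 51.7, 76.5 and 121 CPM for TN61R/R tumors and 46.6, 48.9 and 71.0 CPM for TN61L/L tumors. They were 50.8, 69.1 and 80.5 CPM for TN61K/K tumors and 37.8, 63.0 and 90.4 CPM for TN61H/H tumors. In TN61L/L, 4 of 6 tumors lay under all 6 TN61R/R tumors, and the groups still overlapped. The log2 fold change was -0.58 ± 0.21 in TN61L/L (95% interval -1.01 to -0.16, unadjusted p = 0.00956, edgeR adjusted p = 0.729), -0.42 ± 0.21 in TN61H/H (-0.84 to 0.0088, adjusted p = 0.330) and -0.26 ± 0.21 in TN61K/K (-0.69 to 0.16, adjusted p = 0.784). The adjusted p of its 4-genotype test was 0.298. The edgeR adjusted p of Lypla2 ranged over 36 alternative fits from 0.358 to 1.00 in TN61L/L and over 35 from 0.0754 to 0.565 in TN61H/H.

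Lypla1, known in human cells for the thioesterase activity that gave it the name acyl protein thioesterase, went the other way in value. It had a lowest, median and highest value of 32.7, 43.2 and 60.6 CPM in TN61R/R and 44.8, 58.2 and 97.5 CPM in TN61K/K. Its log2 fold change in TN61K/K was 0.52 ± 0.22 (95% interval 0.05 to 0.98, unadjusted p = 0.0303, edgeR adjusted p = 0.774). Of the 3 TN61K/K tumors above all TN61R/R tumors, all 3 came from libraries whose column names lack a separator. Within the 18 libraries that have the separator, the log2 fold change was 0.16 ± 0.17 (adjusted p = 0.957). Lypla1 gave 0.31 ± 0.22 in TN61L/L (-0.16 to 0.77) and 0.14 ± 0.22 in TN61H/H (-0.32 to 0.60). The third depalmitoylating enzyme, Abhd17a, a membrane-anchored hydrolase that acts on NRAS in human cells, stood between 32.9 and 35.2 CPM in all 4 genotype means, with log2 fold changes of 0.0018 ± 0.15, -0.09 ± 0.15 and -0.01 ± 0.15.

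Pde6d, the carrier of farnesylated RAS, had the lowest mean in TN61R/R and the highest in TN61H/H. The means were 19.7 ± 2.91 CPM for TN61R/R and 23.4 ± 1.96 CPM for TN61H/H, with TN61K/K at 21.2 ± 4.21 and TN61L/L at 22.1 ± 2.51 CPM between them (SD, n = 6). The 6 TN61H/H tumors lay between 21.2 and 26.7 CPM, while TN61R/R tumors lay between 15.5 and 24.3 CPM. The log2 fold change in TN61H/H was 0.25 ± 0.13 (95% interval -0.0078 to 0.51, unadjusted p = 0.0567, edgeR adjusted p = 0.337), which did not pass the test.

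**Figure D3:**
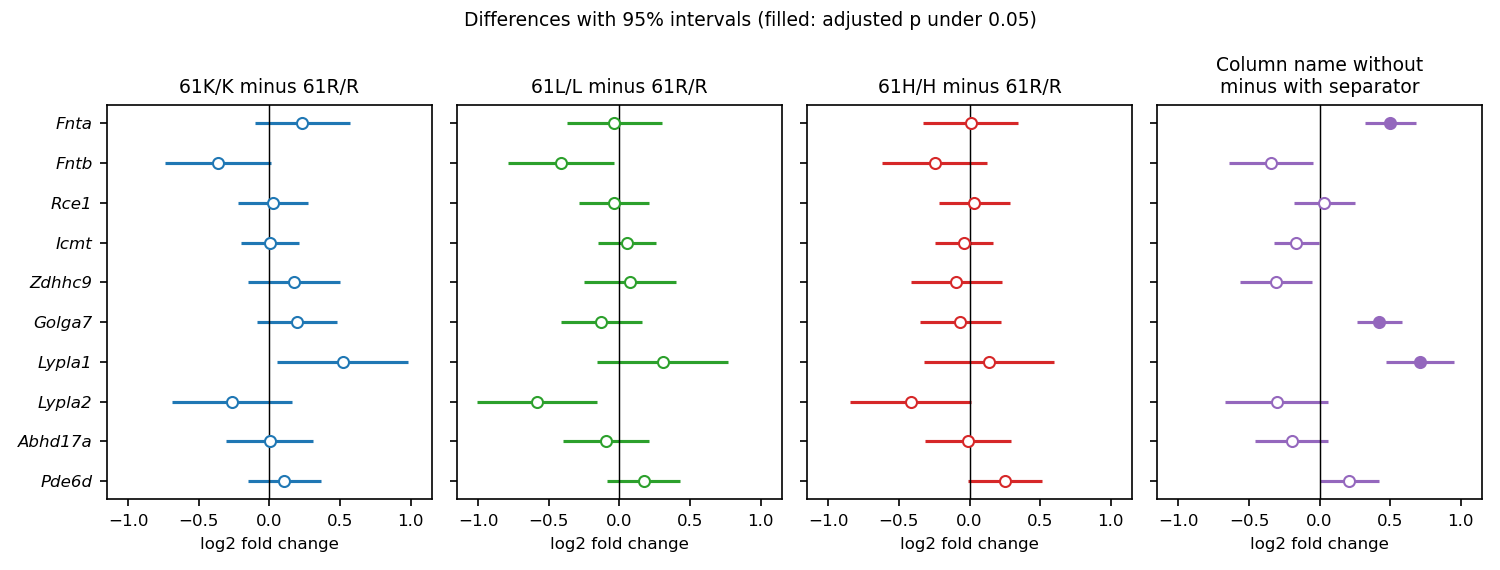
Log2 fold change (horizontal axis) of the 10 genes in TN61K/K, TN61L/L and TN61H/H against TN61R/R, and between the column-name styles. Points are edgeR estimates, lines 95% intervals, filled points an adjusted p under 0.05. Filled points appear only between the styles, for Fnta (0.50), Golga7 (0.42) and Lypla1 (0.71).

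The members had no common direction. The median log2 fold change over the 10 genes was 0.07, -0.04 and -0.02 for TN61K/K, TN61L/L and TN61H/H against TN61R/R, beside 0.01, -0.0083 and 0.01 over all genes tested. Values above 0 were counted for 8, 4 and 4 members, beside 51.6%, 48.6% and 51.5% of all genes. Within the 18 libraries with a separator the 8 of TN61K/K fell to 3, beside 44.0% of all genes, and the other counts were again 4 and 4. These 3 comparisons share the TN61R/R tumors.

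The rest of the pathway was likewise without a called gene. The list held 51 other genes for prenylation, palmitoylation, depalmitoylation, transport of lipidated proteins and isoprenoid supply, of which 50 were in the table and 46 were tested. By edgeR, 0 of 46 passed in each of the 3 comparisons with TN61R/R and 0 of 46 in the 4-genotype test. At an unadjusted p under 0.05 there were 2, 3 and 2 of 46 in the comparisons and 7 of 46 in the 4-genotype test, beside 5.15%, 5.55%, 15.8% and 17.4% of all genes. The median log2 fold change of the list was -0.0052, -0.06 and -0.05 in the same order.

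The 3 listed genes with the lowest p of the 4-genotype test were all palmitoyltransferases. Zdhhc23 was a low-level transcript that ranged from 0.845 to 2.69 CPM in TN61R/R and from 0.0546 to 0.859 CPM in TN61H/H. The groups overlapped narrowly, and its log2 fold change was -1.58 ± 0.43 (edgeR adjusted p = 0.0537, and 0.0600 in the 4-genotype test), just outside the threshold. Zdhhc12 had a mean of 5.45 ± 0.727 CPM (SD, n = 6) in TN61R/R and 3.73 ± 0.507 CPM in TN61L/L (log2 fold change -0.55 ± 0.17, adjusted p = 0.660). The mean of Zdhhc2 was 9.05 ± 3.03 CPM for TN61R/R tumors, 19.9 ± 12.4 CPM for TN61K/K tumors and 20.7 ± 6.79 CPM for TN61L/L tumors, with an adjusted p of 0.182 in the 4-genotype test.

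Fnta, Golga7 and Lypla1 differed between libraries of unlike column-name style. Names of the 24 columns in the count table are of 2 kinds, since 18 have a separator behind their letters and 6 have none. These 6 libraries were TN61R/R replicate 3, TN61K/K replicates 1, 3 and 6, TN61L/L replicate 6 and TN61H/H replicate 6. What the styles stand for is not stated. With genotype in the model, 3 of 10 members differed between the styles by edgeR at an adjusted p under 0.05, beside 28.3% of all genes tested. All 3 were higher without the separator, as were 15.4% of all genes, and 0 members were lower, beside 12.9% of all genes.

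Lypla1 differed most. Its lowest, median and highest value was 60.6, 79.5 and 97.5 CPM in the 6 libraries without the separator and 32.7, 45.6 and 64.2 CPM in the other 18. The ranges touched only at their ends, with a log2 difference of 0.71 ± 0.12 (95% interval 0.47 to 0.95, edgeR adjusted p = 0.000103). Fnta had 55.6, 61.4 and 77.9 CPM against 37.0, 44.0 and 56.6 CPM, a log2 difference of 0.50 ± 0.09 (0.32 to 0.69, adjusted p = 0.000225). Golga7 had 61.2, 75.0 and 84.9 CPM against 41.6, 51.7 and 63.1 CPM, a log2 difference of 0.42 ± 0.08 (0.26 to 0.58, adjusted p = 0.000313). In these 3 genes the libraries without the separator sat above all others of their genotype in every genotype. Zdhhc9 (-0.31 ± 0.12, adjusted p = 0.0622) and Fntb (-0.34 ± 0.14, adjusted p = 0.0786) were just outside the threshold in the other direction, and both passed it with upper-quartile scaling (adjusted p = 0.0340 and 0.0485).

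Only TN61K/K holds 3 libraries of each style. Within those 6, 1230 genes were called, and the log2 differences were 0.78 for Lypla1 (adjusted p = 0.0628), 0.61 for Fnta (adjusted p = 0.0633) and 0.56 for Golga7 (adjusted p = 0.0409). The share of all genes called is not given for this fit, so the call of Golga7 cannot be set beside it. In the fit of all 24 libraries, each of the 3 genes still passed when any 1 of the 6 libraries without a separator was left out.

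The 3 genes that differed between the styles were also the 3 members with the lowest G+C content in their transcripts. The longest coding transcript of Lypla1 has 37.9% G+C, that of Golga7 46.6% and that of Fnta 48.5%, while the other 7 lie between 51.2% and 64.6%. The median over all genes with a matched transcript was 50.2%. Over the 10 members the style difference and the G+C content gave a Spearman rho of -0.66, and across 16561 genes it was -0.36. Genes are not independent replicates, and they share the libraries, so these values are descriptions. Genes higher without the separator had a median of 45.1% G+C and those lower 54.0%. The part of base composition in the style difference was not tested.

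**Figure D4:**
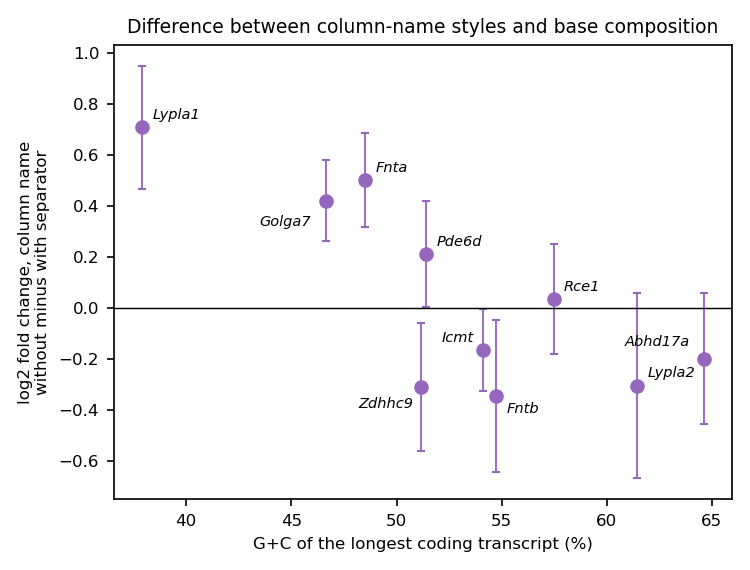
Log2 difference between libraries without and with a separator in the column name (vertical axis, with 95% intervals) against the G+C content of the longest coding transcript (horizontal axis, percent) of the 10 genes. Lypla1, Golga7 and Fnta, at 37.9%, 46.6% and 48.5%, have the 3 highest differences (0.71, 0.42 and 0.50), and Pde6d follows at 0.21.

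The second question was whether enzyme partners varied together across tumors. Of the 4 partner relations of log2 CPM over 24 tumors, 0 passed Benjamini-Hochberg adjustment over the 4. Fnta and Fntb gave a Pearson r of -0.40 (permutation p = 0.0511, adjusted 0.102) and a Spearman rho of -0.32 (permutation p = 0.128, adjusted 0.257), with r = -0.23 without the 2 farthest tumors and r = 0.13 within the 18 libraries. Zdhhc9 and Golga7 gave r = -0.16 (permutation p = 0.453, adjusted 0.604) and rho = -0.13 (permutation p = 0.558, adjusted 0.558). Rce1 and Icmt gave r = 0.02 (permutation p = 0.941, adjusted 0.941) and rho = -0.23 (permutation p = 0.288, adjusted 0.383). Lypla1 and Lypla2 gave r = -0.41 (permutation p = 0.0446, adjusted 0.102) and rho = -0.50 (permutation p = 0.0145, adjusted 0.0579), and r = -0.44 within the 18.

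All 55 pairs among the 10 members and Nras were then examined, a choice made after seeing the data. After adjustment over the 55, 9 pairs passed by Pearson r, and 1 of these also passed within the 18 libraries. The number fell to 5 without TN61H/H replicate 4 and to 5 without TN61H/H replicate 6. The pair that passed in both was Fntb and Lypla2, with r = 0.75 (permutation p = 5.0e-05, adjusted 0.00137) and rho = 0.72 (permutation p = 0.00015, adjusted 0.00412). It gave r = 0.65 without the 2 farthest tumors, r = 0.76 within the 18 libraries (adjusted p = 0.0154), r = 0.62 within the 6 and between 0.54 and 0.79 within each genotype. Within each genotype both genes were highest in the same tumor, with Fntb at 30.4 CPM in TN61R/R replicate 6, where Lypla2 reached 121 CPM, and at 31.3 CPM in TN61H/H replicate 4, where Lypla2 reached 90.4 CPM.

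Zdhhc9 and its substrate Nras varied in opposite directions. They gave r = -0.67 (permutation p = 0.00044, adjusted 0.00484) and rho = -0.65 (permutation p = 0.00064, adjusted 0.0088), r = -0.66 without the 2 farthest tumors, and r = -0.64 within the 18 libraries (adjusted p = 0.0762) and -0.71 within the 6. Within genotypes r was -0.96 for TN61R/R, -0.83 for TN61K/K, -0.35 for TN61L/L and -0.37 for TN61H/H tumors (n = 6 each, not tested). Sums of tissue markers were set beside both genes. The summed level of 7 keratinocyte markers, which ranged from 4.12 to 8694 CPM over all tumors, gave r = 0.52 with Zdhhc9 over 24 tumors (rho = 0.63, permutation p = 0.0099 and 0.00132, adjusted over 77 relations 0.0955 and 0.0339) and r = 0.54 without the 2 farthest tumors. Within the 18 libraries r was 0.81 (adjusted p = 0.00231), and within the 6 it was -0.65. Of these 7 markers, 4 were at 0 in at least 1 library. With Nras the same markers gave r = -0.57 over 24 tumors (rho = -0.70, adjusted 0.0565 and 0.00962) and r = -0.79 within the 18 (adjusted p = 0.00154). The 4 adipocyte markers, at 0.546 to 872 CPM, gave r = -0.81 with Nras (rho = -0.81, adjusted 0.00077 and 0.00077). The melanocyte sum gave r = 0.58 with Nras (adjusted p = 0.0565, and r = 0.67 within the 18, adjusted p = 0.0407) and r = -0.41 with Zdhhc9 (adjusted p = 0.171). The skeletal muscle sum gave r = -0.60 with Nras (adjusted p = 0.0565, and r = -0.66 within the 18, adjusted p = 0.0407), and the fibroblast sum r = 0.55 with Zdhhc9 (adjusted p = 0.0565, and r = 0.60 within the 18, adjusted p = 0.0849). Of all 77 relations, 1 passed by Pearson r over the 24 tumors, that of Nras and the adipocyte markers. Other members had relations of like size. Golga7 gave r = -0.57 with the skeletal muscle sum (rho = -0.59, adjusted permutation p = 0.0565 and 0.0440). Within the 18 that r was -0.56 (adjusted permutation p = 0.118). With the adipocyte sum Golga7 gave r = -0.22 over 24 tumors and r = -0.65 within the 18 (adjusted permutation p = 0.0461). Lypla1 gave r = -0.55 with the melanocyte sum (adjusted permutation p = 0.0565), and r = -0.54 within the 18 (adjusted permutation p = 0.131). The part of these tissues in the relation of Zdhhc9 and Nras was not tested. In whole tumors, fewer cells of a type and less RNA per cell cannot be told apart.

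**Figure D5:**
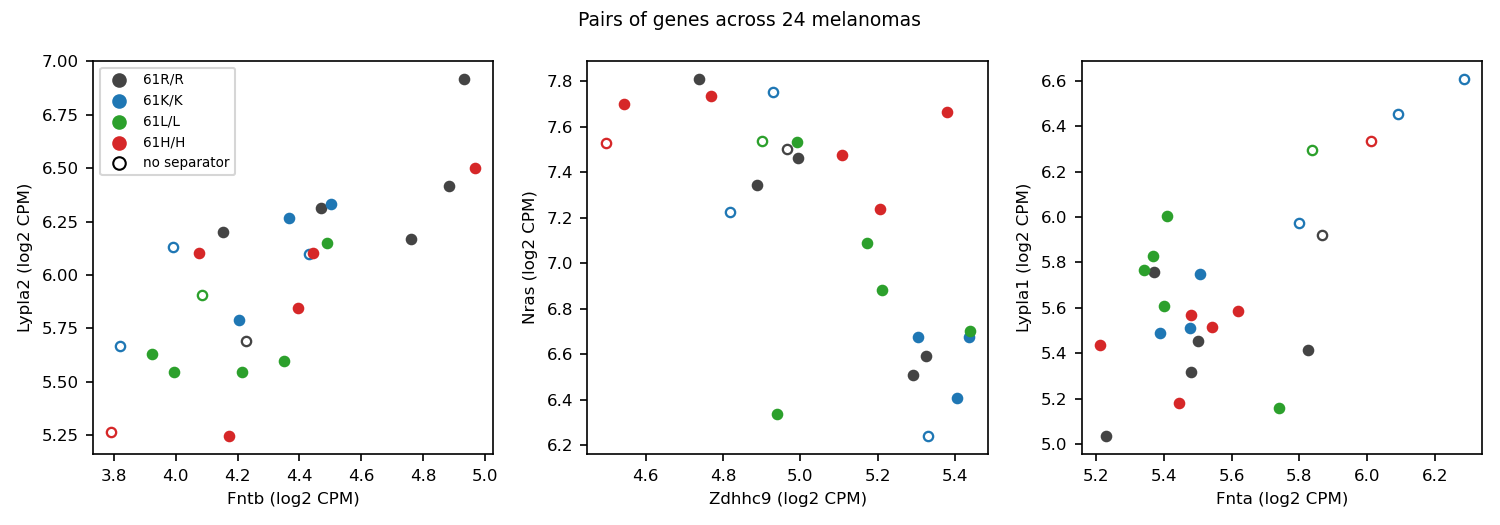
Log2 CPM of 3 pairs of genes in 24 melanomas, colored by genotype, with open points for the 6 libraries without a separator. Fntb and Lypla2 rise together (r = 0.75), Zdhhc9 and Nras run in opposite directions (r = -0.67), and for Fnta and Lypla1 (r = 0.70) the open points sit at the upper right.

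Of the other 7 pairs that passed over the 24 tumors, 2 turned in sign within the 18 libraries. Fnta and Lypla1 gave r = 0.70 (rho = 0.45, adjusted 0.00293 and 0.147) over the 24 tumors but r = -0.14 within the 18 libraries. Golga7 and Lypla1 gave r = 0.54 (rho = 0.37, adjusted 0.0401 and 0.284) and r = -0.28 within the 18. Fnta and Golga7 gave r = 0.81 (rho = 0.77, adjusted 0.00055 and 0.00165), r = 0.64 within the 18 (adjusted p = 0.0762) and r = -0.02 within the 6. Both genes lie on chromosome 8, with 2.74 Mb between them (chr8:25998722-26015601 and chr8:23241326-23257080). The remaining 4 pairs kept their sign within the 18 libraries and did not pass there. Fntb and Lypla1 gave r = -0.69 (rho = -0.70, adjusted 0.00302 and 0.00422), r = -0.56 within the 18 (adjusted p = 0.0988) and r = -0.76 within the 6. Abhd17a gave r = 0.58 with Lypla2 (rho = 0.57, adjusted 0.0263 and 0.0440) and r = 0.59 within the 18 (adjusted p = 0.0985). With Rce1 it gave r = 0.58 (rho = 0.52, adjusted 0.0266 and 0.0918) and r = 0.51 within the 18 (adjusted p = 0.137). Icmt and Lypla1 gave r = -0.53 (rho = -0.51, adjusted 0.0401 and 0.0959) and r = -0.39 within the 18 (adjusted p = 0.296).

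The genes whose log2 CPM ran closest to each member over the 24 tumors were named as a description, at most 2 per member. For Lypla1 the closest was Tcea1, a transcription elongation factor on the same strand of chromosome 1, 10.96 kb away, with r = 0.94. Pde6d had Cyp20a1 (r = 0.89) and Eif4e2 (r = 0.81), both on its own chromosome 1, Eif4e2 at a distance of 0.631 Mb. For Golga7 it was Yipf5 (r = 0.94) and Tmem30a (r = 0.92), for Fnta 2900097C17Rik (r = 0.95) and Cfap36 (r = 0.92), and for Fntb Rad54l2 (r = 0.89) and Ybx3 (r = 0.88). Icmt had Eif4g3 (r = 0.84), Zdhhc9 had Tspan9 (r = 0.87), Abhd17a had Gga1 (r = 0.83) and Rce1 had Ube2r2 (r = 0.78), the lowest leading value of the 10. These relations share the column-name style. Of the 20 closest genes, 11 were called between the styles, beside 28.3% of all genes tested. They were 6 of 6 for Fnta, Golga7 and Lypla1 and 5 of 14 for the other 7 members. Genes picked for closeness to a member that differed between the styles will mostly differ too, so the 6 of 6 is no separate result.

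Zdhhc9 is the X-linked member (chrX:48171971-48208702, - strand), so its level was set beside the female transcript Xist. Xist was at 1281 CPM or more in 13 tumors and at 1.06 CPM or less in 11, with 4 high tumors in TN61R/R and 3 in each other genotype. Zdhhc9 stood at 33.6 ± 6.47 CPM (SD, n = 13) in tumors with high Xist and 34.5 ± 6.33 CPM (SD, n = 11) in those with low Xist. With log2 CPM of Xist in the model, 0 of 10 members had an edgeR adjusted p under 0.05 for it, and 0 had an unadjusted p under 0.05, beside 0.0523% and 2.73% of all genes.

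The counted reads of a library numbered between 31.9 M and 43.8 M. The 8 melanocyte markers summed to 157 to 1107 CPM, most of it from Sox10 (110 to 1049 CPM). Mitf lay between 21.1 and 58.7 CPM, and Pmel had a median of 6.87 CPM and was above 0 in all tumors. Of the other pigment cell genes, Mlana was at 0 in 1 library, Dct in 3, Tyrp1 in 5 and Gpr143 in 6. Leukocyte markers (10 genes) summed to 280 to 497 CPM in TN61H/H, which overlapped neither TN61R/R (512 to 1204 CPM) nor TN61K/K (530 to 2028 CPM). The TN61L/L range of 402 to 904 CPM overlapped that of each other genotype. The melanocyte sum did not overlap between TN61H/H (514 to 1107 CPM) and TN61K/K (157 to 448 CPM). For the other marker lists the ranges of all genotypes overlapped. By gene set enrichment of tumor RNA, the paper reported immune pathway transcripts as enriched in TN61R/R over TN61H/H melanomas. By CD45 staining of tumor sections, which measures protein, it reported that immune infiltration did not differ by NRAS genotype. Fibroblast markers (6 genes) summed to 16136 to 41074 CPM, most of it from Col1a1, Col1a2 and Col3a1 (medians of 9085, 5705 and 10674 CPM). This sum was higher than the melanocyte sum in all tumors, but sums of unlike genes do not give numbers of cells. The part of these cells in the levels of the 10 genes was not tested.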

How the data were processed

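RNA of 24 melanomas was grouped by the genotype in the labels, 6 per genotype. The values are raw counts of reads for each gene, in 1 table that the authors deposited without normalization and that also gives coordinates and gene length. The methods name STAR and build mm10, and the submitters' notes name Picard 2.17.11 and featureCounts. The sources used here do not give the strand setting of the counting, and the labels call the molecule polyA RNA although the protocol depleted ribosomal RNA. The labels do not say whether each tumor came from a separate mouse. The paper counts its in vivo samples as individual mice. Its tumor RNA figure, however, names fewer biological replicates per genotype than the 6 libraries here. The p-values therefore measure only the spread between these tumors. No pair of libraries within a genotype (60 pairs) differed by less than sampling noise, with a chi-square per degree of freedom of at least 61.2.

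Genes were filtered with filterByExpr, scaled by TMM and tested with edgeR 4.0.16 in R 4.3.3 (quasi-likelihood F-test, robust, all 24 libraries in 1 fit, Benjamini-Hochberg over 17214 genes, threshold 0.05). The SE is the log2 fold change divided by the root of F, and intervals are 95%. CPM uses TMM library sizes, log2 CPM a prior count of 2, and RPKM the length in the table. DESeq2 1.42.0, limma 3.58.1 (voom), other scalings and filters, covariates, subsets of libraries and leaving out each library were alternatives. Tests were run on simulated data first. Correlations used two-sided permutation tests with 100000 resamples, whose smallest p is 1e-05. Transcript sequences came from GENCODE M21. G+C content was matched for 96.2% of genes tested.

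The 10 members are always named, as are Nras, the 3 listed pathway genes with the lowest p of the 4-genotype test when none is called, and the 2 genes closest to each member. Some of these items are not reported here. The members, the pathway and marker lists and the comparisons were chosen with earlier results of these data known. The title code as a block, the comparison of column-name styles, the 55 pairs and the 77 relations with marker lists were added after seeing the data.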

Additional observations from a re-analysis of the deposited data

Results flagged for a closer look

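In 2 of the 40 groups (10 members in 4 genotypes), 1 tumor stood apart from the other 5 by Dixon's criterion, where chance marks about 1 group in 20. Icmt stood at 88.0 CPM in TN61L/L replicate 1, and the other 5 tumors of that genotype lay between 66.0 and 69.5 CPM. Lypla1 stood at 80.6 CPM in TN61H/H replicate 6, and the other 5 lay between 36.2 and 47.9 CPM. This is the TN61H/H library whose column name has no separator.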

How the results depend on the processing

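No member was called in any of 1070 refits of the 30 member comparisons with TN61R/R. The sign of the log2 fold change turned in 87 refits of 17 comparisons, none of which had a value beyond 0.23 in size. Within the 18 libraries with a separator, TN61K/K against TN61R/R gave -0.053 for Fnta, -0.12 for Rce1, -0.031 for Golga7, -0.019 for Abhd17a and -0.19 for Pde6d, and TN61H/H gave -0.053 for Fnta and 0.023 for Icmt. In TN61K/K, Icmt and Abhd17a gave -0.014 and -0.015 with upper-quartile scaling, -0.011 and -0.011 without a filter, -0.0072 and -0.0065 with a stricter filter, -0.0053 and -0.0047 with only 12 libraries, and -0.0038 and -0.0014 with TN61H/H replicates 4 and 5, whose titles share a number, summed. Abhd17a gave -0.022 with Xist as a covariate. With the title code as a block, an alternative added after seeing the data, TN61L/L gave 0.16 for Fnta, -0.0011 for Zdhhc9 and 0.057 for Golga7. In TN61H/H, Fnta gave -0.021 with RLE scaling, -0.017 with upper-quartile scaling, -0.0046 without a filter, -0.034 with a stricter filter, -0.021 with DESeq2, -0.0017 with style as a covariate and -0.0061 with the summed libraries, and Rce1 gave -0.0082 with a stricter filter and -0.024 with the summed libraries. Leaving out each library gave, in TN61K/K, -0.042 to 0.10 for Rce1, -0.021 to 0.026 for Icmt and -0.061 to 0.062 for Abhd17a. In TN61L/L it gave -0.11 to 0.027 for Fnta, -0.092 to 0.024 for Rce1, -0.016 to 0.068 for Icmt and -0.0053 to 0.12 for Zdhhc9. In TN61H/H it gave -0.14 to 0.066 for Fnta, -0.039 to 0.075 for Rce1, -0.11 to 0.0046 for Icmt, -0.15 to 0.012 for Golga7, -0.089 to 0.22 for Lypla1 and -0.13 to 0.032 for Abhd17a.

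Genes called over the whole table moved more, and the cause was not tested. For TN61K/K against TN61R/R they were 3 with DESeq2, and for TN61L/L 34. For TN61H/H they were 909 with DESeq2, 189 with limma-voom, 30 with only 12 libraries, 111 within the 18 and 683 with style as a covariate, and 66 (without TN61H/H replicate 1) to 1093 (without TN61H/H replicate 4) in leave-one-out. For any difference they were 1496 with DESeq2, 248 with limma-voom and 11 within the 18, and 44 to 1016 without the same 2 libraries. Genes called between the styles were 1230 within TN61K/K.

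Relations changed with the libraries used. Within the 18, r was 0.13 for Fnta and Fntb, 0.071 for Zdhhc9 and Golga7, -0.25 for Rce1 and Icmt, -0.14 for Fnta and Lypla1 and -0.28 for Golga7 and Lypla1. Rce1 and Icmt gave -0.0042 with RLE scaling, -0.084 with upper-quartile scaling, and -0.38 to 0.17 when tumors were left out. Lypla1 and Lypla2 gave -0.51 to -0.33, and passed without TN61K/K replicate 1 (adjusted permutation p = 0.0482). No paired analysis was possible because replicate numbers only follow the order of the samples. With 6 tumors per genotype, intervals of the members reached 0.20 to 0.46 to either side on the log2 scale.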
